A study of Mus musculus with 6 samples.

Results

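The genes examined here carry fatty acids and ketone bodies into the oxidative metabolism of muscle. They are 36 genes chosen by name: lipase and uptake proteins, the enzyme that activates fatty acids, the carnitine shuttle, mitochondrial β-oxidation and its electron carriers, ketone body use, and the control and uncoupling proteins Acacb, Mlycd, Pdk4, Acot2, Ucp2 and Ucp3. Of the 36 names, 35 had a row among the 34492 gene rows of the array and 1, Hadha, had no row under that name. A row was tested where its detection score, which is 1 minus the detection p-value, was above 0.95 on at least 3 of the 6 arrays. The rows carry capital names, such as SLC25A20, ACSL1, ACADM, LPL and UCP2, and are written here as mouse genes. The threshold was met by 31 of the 35, and Lpl, Cpt1a, Acacb and Ucp2 were left out by it.

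RNA came from the soleus, a hindlimb muscle of posture made largely of slow oxidative fibres, of male mice aged 11 months and of the strain designation CBB6F1xFVB/n. In the group labelled Coco/KO, skeletal muscle alpha-actin (Acta1) was replaced by cardiac actin, per the series title, and the other group was wildtype. Which promoter drives the cardiac actin is not stated in the sources used here. Each group had 3 RNA samples, each pooled from 2 soleus muscles of different mice, so that p-values measure the spread between pools, and all 6 samples shared 1 Illumina beadchip.

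Long-chain fatty acids are freed from circulating triglyceride by lipoprotein lipase, taken up, bound in the cytosol, and activated to acyl-CoA. The carnitine shuttle then exchanges the CoA for carnitine at the outer mitochondrial membrane, moves the acylcarnitine across the inner membrane and restores acyl-CoA inside. β-oxidation shortens the chain in repeated rounds of dehydrogenation, hydration, a further dehydrogenation and thiolysis, and slow fibres draw on it for sustained work.

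The arrays had a mean intensity between 330.2 and 470.2, from 33.6% to 37.9% of rows detected, and a median of 35 or 36 beads behind each value. Acta1 fell by 4.59 on the log2 scale in Coco/KO soleus (limma, adjusted p = 2.96e-05), and Actc1, cardiac actin, was higher by 2.44 (limma, adjusted p = 0.0298), so the actins followed the labels. The Coco/KO 1 array stood apart, with a score of 34.4 on the first principal component against -15.5 to 5.48 on the others, and many of the results below were also read without it. All 10 soleus fibre markers were detected, and only the slow troponin subunit Tnni1 among them had an unadjusted p under 0.05 (log2 0.91, limma, adjusted p = 0.281). The tissue is whole muscle, in which fewer cells of a type and less RNA per cell cannot be told apart.

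Slc25a20, which encodes the carnitine and acylcarnitine carrier of the inner mitochondrial membrane, was the member past the threshold in the comparison of genotypes, and its promoter is shown for that reason. Acadm is shown beside it because of the tested members whose promoters were read, it was the only one with the letters AAGGTCA, a nuclear receptor half-site of the form that ERR factors prefer. Both are the 250 bases before the transcription start in RefSeq, build GRCm38.p6, at chr9:108661886-108662135 on the plus strand and chr3:153944644-153944893 on the minus strand. Capitals mark GC boxes (GGGCGG) in Slc25a20 and the half-site in Acadm, read on either strand.
Slc25a20: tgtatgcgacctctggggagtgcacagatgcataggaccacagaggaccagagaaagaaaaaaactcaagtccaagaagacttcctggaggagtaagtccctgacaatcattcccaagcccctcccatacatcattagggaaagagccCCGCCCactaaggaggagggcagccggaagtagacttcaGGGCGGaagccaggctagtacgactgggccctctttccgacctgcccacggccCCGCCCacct
Acadm: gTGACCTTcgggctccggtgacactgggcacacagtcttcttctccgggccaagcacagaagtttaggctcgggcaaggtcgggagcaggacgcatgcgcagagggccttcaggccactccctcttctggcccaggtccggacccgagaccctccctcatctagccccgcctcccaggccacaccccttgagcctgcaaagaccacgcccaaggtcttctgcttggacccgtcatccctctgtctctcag
The RefSeq promoter table, which reaches 50 bases past the start, matched 30 of the 36 genes, and where it lists several starts the first was read. GGGCGG, searched on both strands, lay in 18 of the 30 promoters (60%), against 35.9% of 27025 genes. AAGGTCA lay in 2 of the 30 (6.67%), Acadm and Acacb, against 4.66% of all genes. The direct repeat of AGGTCA with a single base between, which PPAR reads with RXR and which can overlap AAGGTCA, lay in none of the 30 and in 0.0444% of all. CCAAT lay in 40% of the 30 against 37.9% of all, and TATAAA in 3.33% against 14.2%. A match of letters describes the sequence and is not a binding site.

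Across the 31 tested members, 24 had a lower mean in Coco/KO soleus, where 50.1% of the 12611 rows tested did. The list was chosen with earlier results of these data known, so these counts describe it and are not an independent test. The median log2 difference, Coco/KO minus wildtype, was -0.12, against 0.00 over all rows, and the median standard error of a member was 0.19. One member passed an adjusted p of 0.05 in limma, Slc25a20, which was lower, and none passed higher, where 0.143% of all rows passed in either direction, 0.0793% lower and 0.0634% higher. At an unadjusted p under 0.05, 3 members were lower (background 4.23% of rows) and 1 was higher (background 3.96%), where 8.19% of rows reached it in either direction. The 3 Coco/KO arrays lay below the 3 wildtype arrays for 6 members, against 6.61% of rows, and above them for none, against 6.13%. Slc25a20 passed the detection filter only through wildtype, so it had to count among the lower ones. On the 27 members detected on all 6 arrays, 20 were lower and the median was -0.12. Without the Coco/KO 1 array, 26 of 31 were lower, with a median of -0.16, and over each array left out in turn the count ran from 21 to 26.

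**Figure D1:**
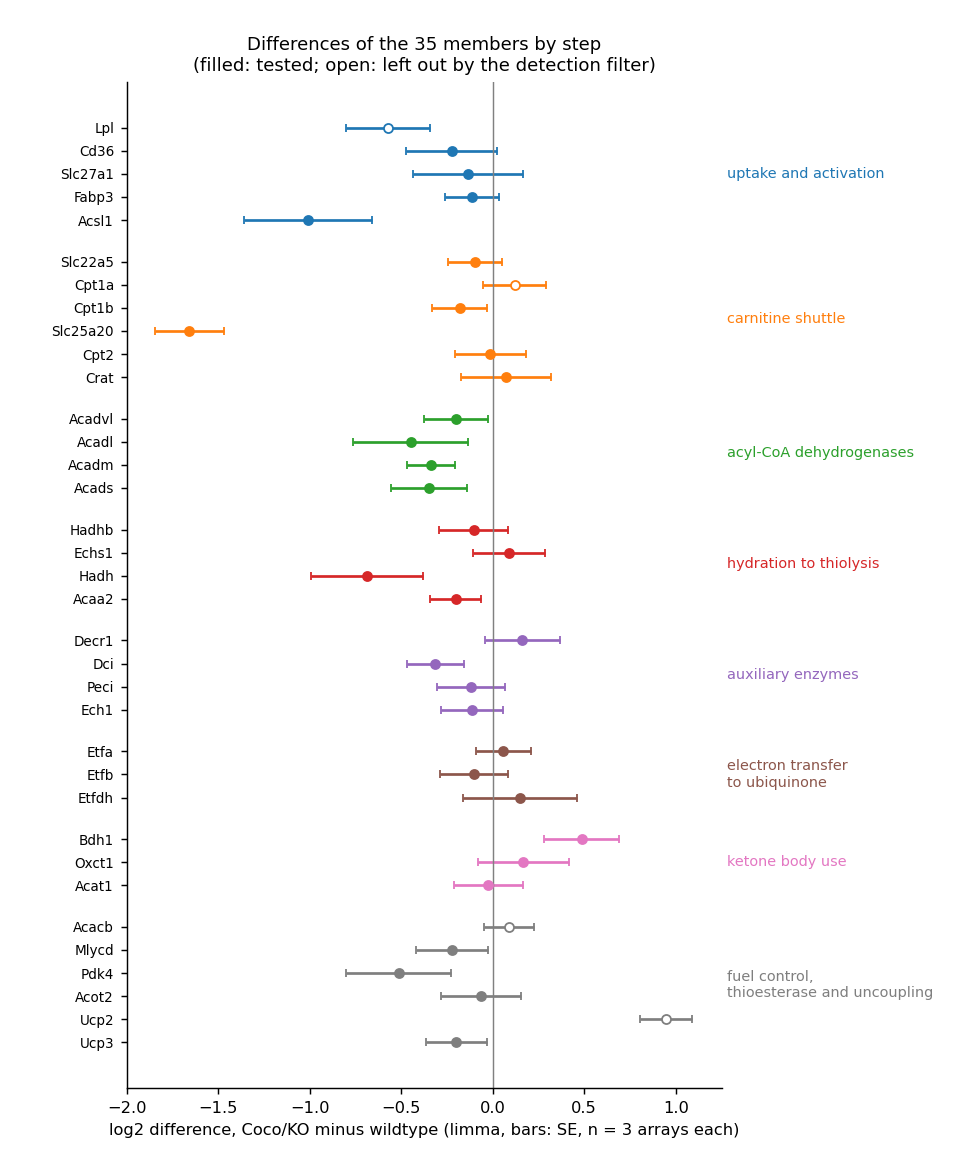
Log2 difference between Coco/KO and wildtype soleus for the 35 members with a row, grouped by step from uptake at the top to fuel control at the bottom. Points are limma estimates with standard errors from 3 arrays per group, filled where the row was tested and open where the detection filter left it out. Acsl1 lies at -1.01 and Ucp2 at 0.95. Slc25a20 is drawn at its fitted -1.66, although its Coco/KO signal was not above background and only the bound on its fold can be read.

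The proteins of uptake and activation were all lower on average, with differences from -1.01 to -0.11 and a median of -0.18 over 4 tested members, none passed the test, and the sign of Cd36 turned with chip position as a covariate. The median rested on single arrays, at -0.40 without wildtype 1 and -0.06 without wildtype 2, and was -0.08 with chip position. Acsl1 encodes the main long-chain acyl-CoA synthetase of muscle and fat, which traps fatty acids as acyl-CoA. Its normalized log2 signals were 8.66, 9.69 and 10.04 in Coco/KO soleus, against 10.19, 10.93 and 10.30 in wildtype soleus. The groups did not overlap, and Coco/KO 1 was the lowest array by a wide margin. The difference of -1.01 (SE 0.35) did not pass (limma, adjusted p = 0.465), and it was -0.61 without Coco/KO 1.

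Cd36 encodes the fatty acid translocase at the cell surface. Its log2 signals were 11.35, 10.93 and 11.74 in Coco/KO soleus, against 11.14, 11.80 and 11.75 in wildtype soleus, with wildtype 1 inside the Coco/KO range. The difference was -0.23 (SE 0.25), and it was -0.02 without Coco/KO 2 and -0.44 without wildtype 1. Slc27a1, a fatty acid transport protein with acyl-CoA synthetase activity, differed by -0.14 (SE 0.30), which became 0.17 without Coco/KO 2 and -0.41 without Coco/KO 1, and the cytosolic carrier Fabp3 by -0.11 (SE 0.15).

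Lpl, lipoprotein lipase, showed where the detection score parts from intensity. Its deposited intensities were 4725, 2522 and 5067 in Coco/KO soleus, against 3345, 9401 and 6283 in wildtype soleus, yet its score passed 0.95 on 2 arrays, both wildtype. An intensity of about 20.1 to 22.4 was typical of rows at a score of 0.95, and each array had between 459 and 710 rows above 100 units that missed the score. Lpl was thus the member just outside the threshold, as Slc25a20, detected on 3 arrays, was just inside it. With no filter the Lpl difference was -0.57 (SE 0.23), with log2 signals of 12.18, 11.67 and 12.03 in Coco/KO soleus, against 12.07, 12.98 and 12.55 in wildtype soleus, so that Coco/KO 1 lay inside the wildtype range and the others below it (limma, adjusted p = 0.722).

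In the carnitine shuttle, Slc25a20 fell and the enzymes on either side of it did not pass. Its deposited intensities were -8.7, -10.9 and -3.4 in Coco/KO soleus, against 57.2, 139.2 and 134.5 in wildtype soleus, where values are background-subtracted and the standard error over beads was between 5.90 and 19.4 units. The carrier row was detected on none of the Coco/KO arrays and on all 3 wildtype arrays. On the normalized log2 scale it read 5.65, 5.58 and 5.78 in Coco/KO soleus, against 6.96, 7.46 and 7.59 in wildtype soleus. The groups did not overlap, and Coco/KO 1 lay between the other Coco/KO arrays. The Coco/KO values were not above background, so their spread is not a spread of expression. The standard error and limma p-values below take in that spread. The row passed the detection filter only through wildtype.

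Because the Coco/KO signal was not above background, only a bound can be given. Taken from the dimmest detected row of each array, the signal was at least 2.43-fold lower in Coco/KO than in wildtype soleus. This bound belongs to the main processing, and a higher floor would lower it. The measured log2 means were 5.67 ± 0.10 in Coco/KO and 7.33 ± 0.33 in wildtype soleus (SD, n = 3 each), a fitted difference of -1.66 (SE 0.19; limma, adjusted p = 0.0155). By exact permutation of the arrays, two-sided, p was 0.1, the lowest value that 3 against 3 can reach. The call held without Coco/KO 1 (limma, adjusted p = 0.0326), without wildtype 1 (0.0124) and with no filter (0.0134). It was lost without Coco/KO 2 or 3 (0.0924 and 0.0624), without wildtype 2 or 3 (0.0810 and 0.0859), with an offset of 50 (-1.20, 0.0623), and with background modelled from detection p-values (-0.20, 0.423). With each array left out in turn the fitted difference stayed between -1.88 and -1.53, so in those settings the p-value moved more than the difference.

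Cpt1b, the muscle form of the outer membrane palmitoyltransferase that feeds this carrier, gave log2 signals of 12.87, 12.70 and 12.57 in Coco/KO soleus, against 12.79, 13.04 and 12.86 in wildtype soleus. These ranges overlapped, and the difference was -0.18 (SE 0.15; limma, adjusted p = 0.851). Cpt2, which restores acyl-CoA on the matrix side, differed by -0.01 (SE 0.19), the carnitine acetyltransferase Crat by 0.07 (SE 0.25), and the plasma membrane carnitine transporter Slc22a5 by -0.10 (SE 0.15). The sign of Cpt2 and of Crat turned in 4 alternatives each. Without Coco/KO 1 the differences of Cpt2, Crat and Slc22a5 were -0.08, -0.21 and -0.20. Cpt1a, the liver form, was above the score on 1 Coco/KO array and on no wildtype array, at log2 signals of 6.41, 5.99 and 6.61 in Coco/KO soleus, against 6.07, 6.19 and 6.38 in wildtype soleus, which overlapped.

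**Figure D2:**
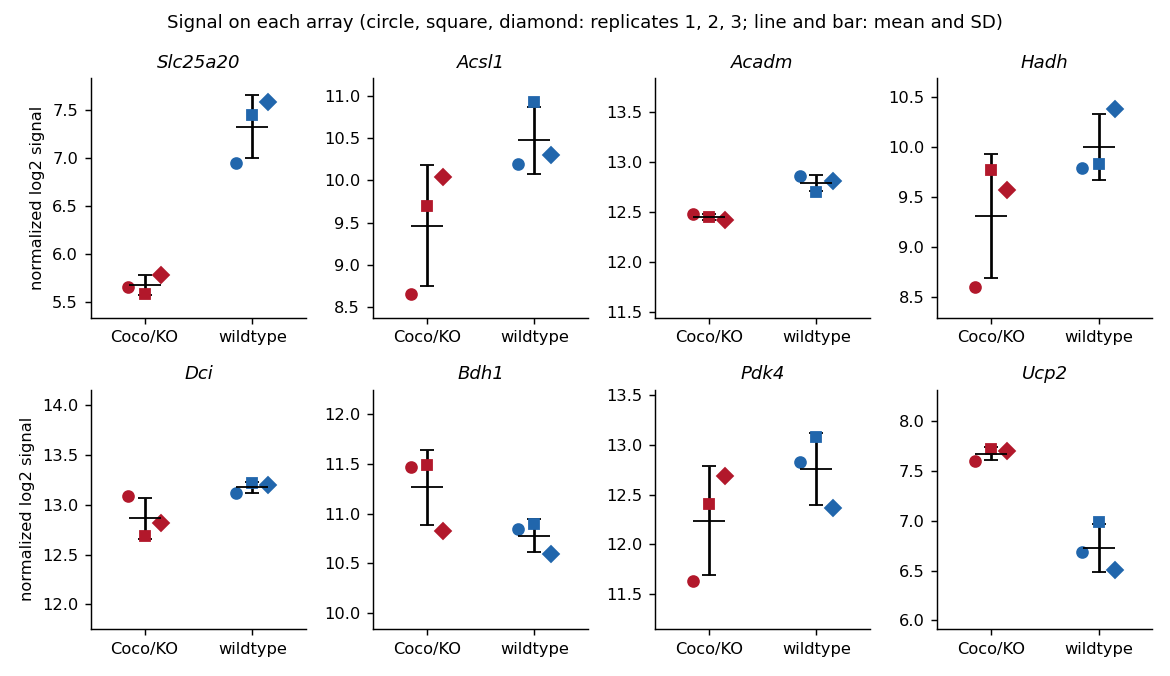
Normalized log2 signal of 8 members on each array, with Coco/KO on the left and wildtype on the right of each panel and the mean and SD of 3 arrays. Panels span different levels, and the signal of 1 gene is not comparable with that of another. The groups do not overlap for Slc25a20, Acsl1, Acadm, Hadh, Dci or Ucp2, and they overlap for Pdk4 and, through Coco/KO 3 at 10.83, for Bdh1.

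The acyl-CoA dehydrogenases, which take the first electrons from the chain and divide the work by chain length, were lower in all 4 members, with a median of -0.34 and none past the test, and each kept this sign in every alternative run. The size did not hold in the same way, since the value nearest 0 was -0.30 for Acadm, but -0.06 for Acads with modelled background, -0.07 for Acadl with chip position and -0.09 for Acadvl without Coco/KO 1. Acadm, for medium chains, had log2 signals of 12.48, 12.45 and 12.42 in Coco/KO soleus, against 12.86, 12.70 and 12.81 in wildtype soleus. Within each genotype these arrays lay close together and the genotypes did not overlap. The difference was -0.34 (SE 0.13; limma, adjusted p = 0.542, unadjusted 0.0331), and it ran from -0.37 to -0.30 with each array left out in turn.

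Acads, for short chains, was at 6.59, 7.36 and 6.87 in Coco/KO soleus, against 7.35, 7.39 and 7.13 in wildtype soleus. Coco/KO 2 lay among the wildtype arrays, and the difference was -0.35 (SE 0.21), or -0.17 without Coco/KO 1. The long-chain enzymes gave -0.45 (SE 0.31) for Acadl and -0.20 (SE 0.17) for Acadvl, both with overlapping groups, and Acadl ran from -0.81 to -0.26 with each array left out in turn. On the arrays one by one, the median of the 4 dehydrogenases stood at -0.47, -0.20 and -0.24 in Coco/KO soleus relative to the wildtype mean, against 0.07, 0.08 and -0.07 in wildtype soleus. That median separated the genotypes, the only step median to do so, where 12.7% of single rows tested did so in either direction. The median difference of the 4 was -0.27 without Coco/KO 1.

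Of the enzymes from hydration to thiolysis, 3 of 4 tested members were lower and none passed. Hadh, the dehydrogenase for medium and short hydroxyacyl-CoA, had log2 signals of 8.60, 9.77 and 9.57 in Coco/KO soleus, against 9.79, 9.83 and 10.38 in wildtype soleus. The groups met at Coco/KO 2 and wildtype 1 without overlapping. Its difference of -0.69 (SE 0.31; limma, adjusted p = 0.615) became -0.33 without Coco/KO 1.

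Acaa2, the mitochondrial thiolase, had log2 signals of 12.88, 12.95 and 13.06 in Coco/KO soleus, against 13.19, 13.24 and 13.08 in wildtype soleus. There was no overlap, and the difference was small, at -0.20 (SE 0.14; limma, adjusted p = 0.780). Hadhb, the thiolase subunit of the trifunctional protein, differed by -0.10 (SE 0.19), and the enoyl-CoA hydratase Echs1 by 0.09 (SE 0.20), with signs that turned in 1 and 2 alternatives. Without Coco/KO 1 they were -0.19 and -0.08.

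Unsaturated fatty acids need auxiliary enzymes that move or reduce their double bonds. Dci, now Eci1, the mitochondrial enoyl-CoA isomerase, had log2 signals of 13.09, 12.69 and 12.81 in Coco/KO soleus, against 13.11, 13.22 and 13.20 in wildtype soleus. Coco/KO 1 lay just under the wildtype arrays and the others further below. Its difference was -0.31 (SE 0.15; limma, adjusted p = 0.658) and -0.42 without Coco/KO 1. Decr1, the dienoyl-CoA reductase, went the other way on average, at 9.98, 10.49 and 10.03 in Coco/KO soleus, against 10.31, 9.95 and 9.75 in wildtype soleus, with overlap (0.16, SE 0.20). Peci, now Eci2, and Ech1 differed by -0.12 and -0.11 (SE 0.18 and 0.17), or -0.02 and 0.0018 without Coco/KO 1, and Decr1 by 0.26 without it.

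The electron carriers that serve the dehydrogenases had differences on both sides of 0, and none passed the test. The median difference of Etfa and Etfb, the subunits of the electron transfer flavoprotein, and Etfdh, which passes its electrons to ubiquinone, was 0.06. Etfb was at 13.07, 13.65 and 13.18 in Coco/KO soleus, against 13.52, 13.26 and 13.43 in wildtype soleus. Etfdh was at 11.79, 10.65 and 11.23 in Coco/KO soleus, against 10.57, 11.42 and 11.23 in wildtype soleus. Both overlapped broadly, and the differences were -0.10 (SE 0.19) and 0.15 (SE 0.31), with 0.06 (SE 0.15) for Etfa. Without Coco/KO 1 they were 0.01, -0.14 and -0.01. The difference between these 3 genes and the dehydrogenases was not tested.

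**Figure D3:**
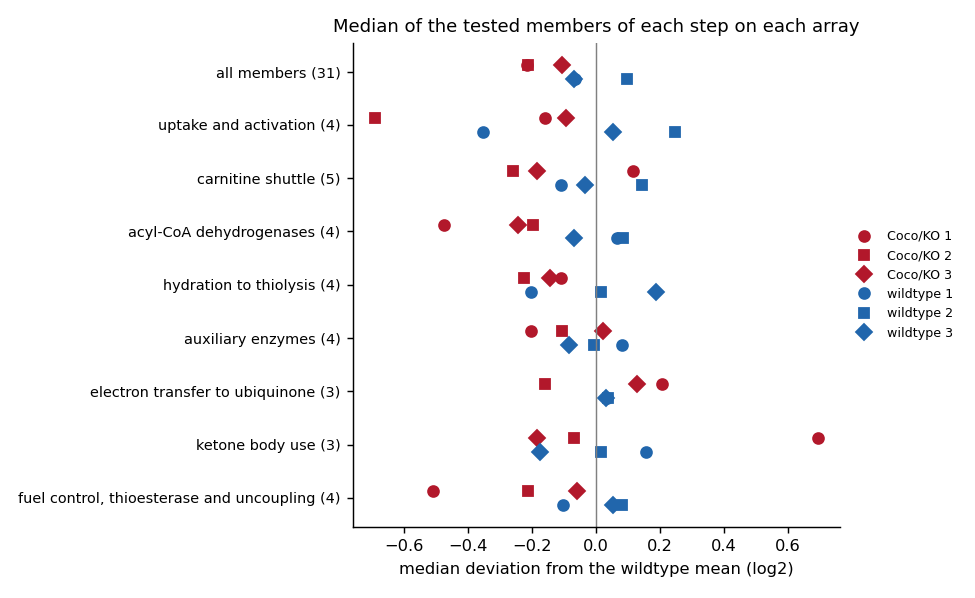
Median deviation from the wildtype mean (log2) over the tested members of each step, with the number of members in brackets, drawn for the 3 Coco/KO arrays above and the 3 wildtype arrays below each line. The medians over all members and over the acyl-CoA dehydrogenases separate the genotypes, those of the other steps overlap, and the ketone body median of Coco/KO 1 lies apart at 0.69. Of single rows tested, 12.7% separate the genotypes in either direction.

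Ketone body use stood on the other side of 0, with a median of 0.17 over 3 members and none past the test. Bdh1, which oxidises hydroxybutyrate to acetoacetate, had log2 signals of 11.47, 11.49 and 10.83 in Coco/KO soleus, against 10.84, 10.90 and 10.59 in wildtype soleus. Coco/KO 1 and 2 lay above all wildtype arrays and Coco/KO 3 among them. The difference of 0.49 (SE 0.21; limma, adjusted p = 0.597, unadjusted 0.0446) was positive in each alternative run, from 0.33 to 0.71. Oxct1, the CoA transferase that commits ketone bodies to oxidation, was at 13.34, 12.52 and 12.40 in Coco/KO soleus, against 12.75, 12.60 and 12.41 in wildtype soleus. Coco/KO 1 stood above all other arrays, and the difference of 0.17 (SE 0.25) was -0.13 without it, as was the median of the step, which was also -0.11 with chip position. Acat1, the acetoacetyl-CoA thiolase, differed by -0.02 (SE 0.19), or -0.20 without Coco/KO 1.

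Among the genes that set the choice of fuel, Pdk4 encodes the kinase that shuts pyruvate dehydrogenase when fatty acids are burned. It had log2 signals of 11.63, 12.40 and 12.69 in Coco/KO soleus, against 12.82, 13.08 and 12.36 in wildtype soleus, which overlapped. Its difference was -0.51 (SE 0.29; limma, adjusted p = 0.708) and -0.21 without Coco/KO 1. Mlycd, which removes the Cpt1 inhibitor malonyl-CoA, differed by -0.22 (SE 0.20), and the acyl-CoA thioesterase Acot2 by -0.06 (SE 0.22), and without Coco/KO 1 they were -0.06 and 0.14. Acacb, which makes malonyl-CoA at the mitochondrial surface, was below the score on all 6 arrays, at log2 signals of 6.07, 6.22 and 5.93 in Coco/KO soleus, against 6.18, 5.88 and 5.91 in wildtype soleus.

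The uncoupling proteins are carriers of the same family as Slc25a20. Ucp3, the muscle form, was near background, at 5.99, 6.11 and 6.27 in Coco/KO soleus, against 6.18, 6.20 and 6.58 in wildtype soleus, with overlap (-0.20, SE 0.17). Ucp2, which is broadly expressed and abundant in immune cells, had deposited intensities of 137.2, 112.1 and 190.4 in Coco/KO soleus, against 39.5, 81.1 and 34.3 in wildtype soleus. All 6 exceed the intensity typical of a score of 0.95, although the Ucp2 score was under 0.95 on each array, so the row was not among those tested.

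With no filter, Ucp2 log2 signals were 7.60, 7.72 and 7.70 in Coco/KO soleus, against 6.69, 6.98 and 6.51 in wildtype soleus, and every Coco/KO array lay above every wildtype array. The difference of 0.95 (SE 0.14) did not pass (limma, adjusted p = 0.108), where 0.0609% of the 34492 unfiltered rows did, and with rows chosen by intensity the adjusted p was 0.114. Among the other settings run without a filter it ranged from 0.0837 without wildtype 2 to 0.498 with modelled background, where the difference was 0.18. Macrophage markers were higher in the same muscles in 10 of 10 tested rows, with a median of 0.67 (0.40 without Coco/KO 3), and none passed the test. The summed normalized intensity of the 10 rows was 2798 to 6259 in Coco/KO soleus, against 1773 to 2301 in wildtype soleus, and Fcgr3 led them at 1.42 (SE 0.31; limma, adjusted p = 0.257). Ptprc and Lyzs, also on that list, were not detected on enough arrays. The part of these markers in the Ucp2 value was not tested.

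Adipocyte markers bear on Lpl, Cd36 and Acsl1, which fat cells also express. All 6 tested of 9 marker rows were lower, with a median of -0.78 (-0.48 without wildtype 2) and none past the test. Cfd, Cidec and Adipoq led at -0.81, -1.16 and -1.08, and Retn, Adrb3 and Lgals12 were not detected on enough arrays. Their summed normalized intensity was 21990 to 30719 in Coco/KO soleus, against 29804 to 45420 in wildtype soleus, and Coco/KO 1 had the least. Car3, a row of this list that differed by -0.10 (SE 0.14), was the brightest on every array, so the sum rests heavily on it. Whether the sum, or the Car3 row, measures fat cells in this muscle was not tested. On Coco/KO 1, Acsl1 was at its lowest, Lpl was at its highest of the Coco/KO arrays and Cd36 lay between the other Coco/KO arrays. The part of these markers in the values of the uptake genes was not tested. Endothelial markers, of capillaries that carry Lpl and Cd36, were lower in 3 of 5 tested rows (Kdr, Tie1, Flt1 and Erg were not detected on enough arrays), with a median of -0.14 (0.08 without wildtype 1) and a summed intensity of 3100 to 4895 in Coco/KO soleus, against 3039 to 5519 in wildtype soleus.

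**Figure D4:**
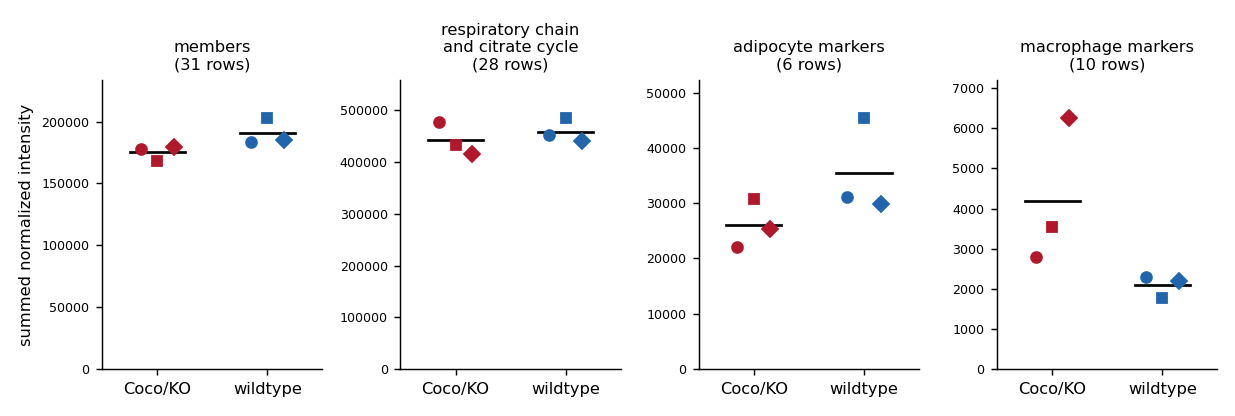
Summed normalized intensity of the tested members, of respiratory chain and citrate cycle genes, and of adipocyte and macrophage markers on each array, with Coco/KO left of wildtype, axes from 0 and lines at the means. The members total 167983 to 179441 in Coco/KO and 183305 to 202818 in wildtype soleus without overlap, the respiratory chain list overlaps, the adipocyte list overlaps at Coco/KO 2, and the macrophage list does not overlap. Car3 is the brightest row of the adipocyte list on every array. Fabp3 is the brightest member row on every array, so the sum of the members rests heavily on it and on other bright rows such as Hadhb and Etfa. The groups overlap for each of these rows, with differences of -0.11, -0.10 and 0.06.

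Other genes of fatty acid handling were read from a list of 58 names, of which 36 rows were tested. None passed limma's test in either direction, 23 were lower and 13 higher, and the median was -0.06. The rows of lowest p were Pdk2, a further pyruvate dehydrogenase kinase (-0.59, SE 0.22), the peroxisome proliferation gene Pex11a (-0.37, SE 0.15), Prkaa2, the catalytic subunit of AMP-activated kinase found in muscle (-1.07, SE 0.46), and Pdk1 (0.37, SE 0.17). For Prkaa2 the signals were 7.55, 9.40 and 9.49 in Coco/KO soleus, against 9.89, 10.16 and 9.61 in wildtype soleus, and Coco/KO 1 was far below the other 5 arrays. The Prkaa2 difference was -0.44 without it. By group, transport and activation genes had a median of -0.20 over 6 rows, with 4 lower. Peroxisomal genes had a median of -0.07 over 11 rows, mitochondrial ones -0.05 over 7, fuel switch genes -0.05 over 6 and triglyceride store genes 0.01 over 6. The median of the whole list ran from -0.08 to -0.01 with each array left out in turn.

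Respiratory chain and citrate cycle genes, which receive what β-oxidation yields, had a median of -0.08 over 28 tested rows, with 22 lower and none past the test. With each array left out in turn the median ran from -0.13 to -0.03 and the number lower from 16 to 24. Uqcrc1, a core subunit of complex III, was the one of lowest p (-0.49, SE 0.18; limma, unadjusted p = 0.0245). Their summed intensity was 415088 to 478078 in Coco/KO soleus, against 439967 to 485293 in wildtype soleus. The fatty acid oxidation members and this list were set side by side without a test of their difference.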

How the data were processed

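Whole soleus RNA was amplified with biotin labelling and hybridised to an Illumina mouse whole-genome beadchip, per the labels' protocols. The deposited intensity values are a BeadStudio 3.2.6 export with normalization set to none, per the file headers, with a bead standard deviation, a bead number and a detection score for each row. Between 30.1% and 32.9% of the deposited intensities per array were at or below 0, so background was already subtracted. BeadStudio and limma are the tools in the submitters' processing notes. The deposited value table of probes was not used here, because nothing pairs its probes with genes.

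A constant of 42.7 and an offset of 16 were added, log2 was taken and arrays were quantile normalized. The 58.7 units added understate the fold changes of dim rows. The comparison of genotypes used limma 3.58.1 (R 4.3.3) on the 12611 rows with a detection score above 0.95 on 3 arrays, with Benjamini-Hochberg adjustment over all of them and a threshold of 0.05. The procedure was tested on simulated data. In 10 simulations with 200 changed rows, it recovered 0% of log2 changes of 0.5, 83.7% of 1 and 99.8% of 2. The simulated noise was normal, at the SD limma estimated for each row, and normalization and the detection filter were not simulated. With fewer changed rows the adjusted threshold is stricter, and 18 rows were called in the data, so recovery here may be lower. False calls averaged 7.08% of the calls at 1 and 6% at 2. A member that did not pass may thus still differ, and not only by a small amount. Acsl1, with a fitted difference of -1.01 (SE 0.35), did not pass. For a row undetected in a group, the bound takes, on each array of that group, its own signal or the dimmest detected row's, whichever is higher. With 3 arrays per group their number limits the precision. Members and lists were chosen with earlier results of these data known. Values by array are given for called members, the 2 of lowest p in each step and members undetected in a group, and up to 4 rows of lowest p are named from each other list. Promoters are from RefSeq.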

Additional observations from a re-analysis of the deposited data

How the results depend on the processing

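Of 553 comparisons of a tested member with an alternative, 518 kept their direction and their side of the threshold. In 29 the sign turned, and in 6 the call was lost, all of them for Slc25a20, which had 17 alternatives. No other tested member was called in any setting, so for those the count is of signs kept. The number of members called was 0 with an offset of 50, on rows detected on all 6 arrays (where Slc25a20 is not a row) and with modelled background, ran from 0 to 1 with each array left out in turn, and was 1 in every other setting, including a filter on intensity. The filter on intensity and modelled background were chosen after the data were seen. The median difference ran from -0.19 to -0.10. Over all rows, 18 were called, with 9 at an offset of 50, 9 on rows detected on all 6 arrays, 11 with chip position as a covariate, 2 with modelled background, and from 5 to 29 with each array left out in turn.

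The same-numbered samples do not pair: their deviations correlated at -0.05, -0.29 and 0.09. With the replicate number as a block 1 member was called, Slc25a20 (limma, adjusted p = 0.0481), and the median was -0.12.

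The sign turned with chip position for Cd36 (0.0039), Cpt2 (0.0048), Crat (-0.096), Peci (0.022), Oxct1 (-0.11) and Acot2 (0.050). Coco/KO arrays lay at positions A, C and D and wildtype arrays at B, E and F. Position is thus partly confounded with genotype, and this covariate can take up part of the genotype difference. The sign turned with median centring for Cpt2 (0.032). The sign turned with array weights for Crat (-0.0037). With each array left out in turn the sign also turned, with values running for Slc27a1 from -0.41 to 0.17, Cpt2 from -0.099 to 0.14, Crat from -0.21 to 0.24, Hadhb from -0.25 to 0.038, Echs1 from -0.075 to 0.22, Decr1 from -0.0024 to 0.32, Peci from -0.26 to 0.0046, Ech1 from -0.18 to 0.0018, Etfa from -0.014 to 0.17, Etfb from -0.28 to 0.013, Etfdh from -0.14 to 0.43, Oxct1 from -0.13 to 0.34, Acat1 from -0.20 to 0.073, Acot2 from -0.29 to 0.14 and Cpt1a from -0.016 to 0.30, where Cpt1a was read with no filter. The cause was not tested. Dim rows such as Slc25a20, Acot2 and Ucp3 lie near background, where the added units weigh most.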
